A study of Mus musculus with 7 samples.

Results

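The comparison described here is that of embryonic retinas that had lost a single copy of *Ptbp1* with the wildtype library of the same experiment. It rests on 4 of the 7 bulk RNA-seq libraries, the 3 heterozygous libraries (Het1, Het2 and Het3) and the only wildtype library (WT), which were selected by the genotype in their labels, and it covers every gene in the count table. All libraries were made from pooled whole mouse retinas taken at E16. The genotype of the WT library was given as *Chx10Cre*, with no floxed allele named, the Het libraries were *Chx10-Cre;Ptbp1lox/WT*, and the 3 homozygous libraries (KO1 to KO3), given below only for orientation, were *Chx10-Cre;Ptbp1lox/lox*. No agent was given to any group and no strain was named in the labels. Cre from the *Chx10* promoter is made in retinal progenitors, so cells that do not descend from them keep both *Ptbp1* copies in every genotype, and the loxP sites flank the *Ptbp1* promoter and first exon. The labels do not say whether the pools of a genotype came from separate litters, so the spread of the Het libraries may be partly technical, and the spread of the WT group could not be measured.

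PTBP1 is an RNA-binding protein of progenitors and non-neuronal cells that binds pyrimidine-rich stretches of pre-mRNA and mostly keeps neighbouring exons out of the mature transcript. Its paralogue PTBP2 takes over in differentiating neurons, and PTBP1 itself holds PTBP2 down by causing the skipping of a *Ptbp2* exon, which leads to decay of the transcript. The remaining paralogue, PTBP3, is found mainly in other tissues. At E16 the mouse retina holds dividing progenitors together with newborn ganglion cells, amacrine and horizontal cells, cones and the first rods, while bipolar cells and Müller glia are still to come.

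The gene-assigned counts totalled 148690857 in WT and from 120593979 to 171117305 in the Het libraries. Levels are given as CPM, counts scaled to a common library size with TMM. Ratios of the Het and of the KO libraries share the same WT library, so their values are set side by side and not compared with each other by a test. The retinal identity of the libraries was checked with the 18 markers chosen for it: the progenitor genes *Rax*, *Pax6* and *Ccnd1* and the neuronal genes *Stmn2*, *Crx* and *Isl1* were all well expressed, and the lowest of the 18 in any WT or Het library was *Ptf1a* at 14.6 CPM. Het1 stood apart from the other 2 Het libraries. In 306 genes it was more than 2-fold above WT while Het2 and Het3 were within 1.5-fold of WT, against 1 such gene for Het2 and 7 for Het3, and these genes included most of the skeletal muscle genes examined. Several results that rest on Het1 are therefore also given without it.

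**Figure D1:**
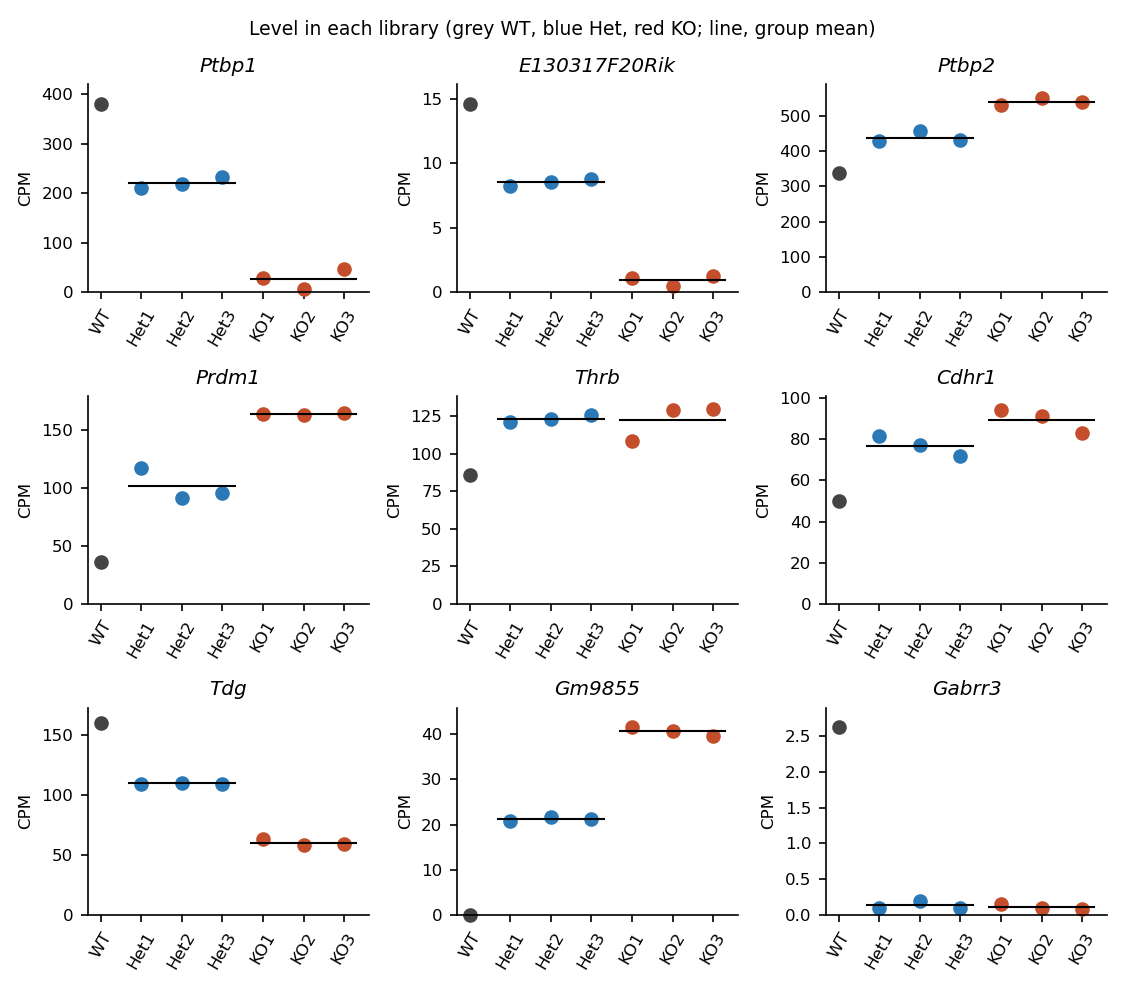
Level in CPM (linear axes from 0) of 9 genes in the WT library (grey), the 3 Het libraries (blue) and the 3 KO libraries (red), with a line at the mean of each replicated group. The Het libraries lie between WT and KO for *Ptbp1*, *E130317F20Rik*, *Ptbp2*, *Prdm1*, *Tdg* and *Gm9855*, and near the KO level for *Thrb* and *Gabrr3*.

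*Ptbp1* (ENSMUSG00000006498; GRCm38 chromosome 10, 79854427 to 79864771, plus strand) was first examined as a check of the genotypes. It was expressed at 381 CPM in WT, at 210.3, 219 and 234 CPM in Het1, Het2 and Het3, and at 27.9, 6.04 and 46.9 CPM in KO1, KO2 and KO3. The Het libraries thus held 55.2%, 57.4% and 61.4% of the WT level, with a mean of 221 ± 11.9 CPM (SD, n = 3), and all 3 lay between WT and every KO library. The log2 fold change of Het against WT was -0.79 with a standard error of 0.79 in the fit of all 7 libraries, and it did not pass the test (edgeR quasi-likelihood test, adjusted p = 0.9998). With the WT and Het libraries alone the standard error was 0.0632 and the adjusted p 0.375 (edgeR), and an exact permutation test of 1 library against 3 cannot give a p below 0.25. In bulk tissue, fewer cells that express a gene and less RNA per cell cannot be told apart.

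A non-coding gene starts beside *Ptbp1*. *E130317F20Rik*, annotated as a bidirectional promoter long non-coding RNA (chromosome 10, 79851381 to 79854971, minus strand), was at 14.6 CPM in WT, at 8.28, 8.51 and 8.74 CPM in the Het libraries and at 1.09, 0.479 and 1.22 CPM in the KO libraries. Its Het mean was 58.1% of WT, close to the 58.0% of *Ptbp1*, and its adjusted p was also 0.9998 (edgeR). Of its 3591 exonic bases, 295 lie opposite *Ptbp1* exons, and the strand setting of the counting was not given in the sources used here. The 250 bases before the RefSeq start of *Ptbp1* (GRCm38.p6, chr10:79854182-79854431, plus strand), which lie inside the *E130317F20Rik* gene, are shown because the loxP sites flank the promoter. The capitals mark the letters AAGATGGCG, searched on both strands after the sequence had been seen.

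Ptbp1 promoter: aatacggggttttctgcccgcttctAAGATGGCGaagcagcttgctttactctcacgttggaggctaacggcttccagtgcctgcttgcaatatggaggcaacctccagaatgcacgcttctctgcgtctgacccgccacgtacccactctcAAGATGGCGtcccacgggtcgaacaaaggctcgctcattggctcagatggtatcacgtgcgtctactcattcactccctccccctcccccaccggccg

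These letters occurred 2 times in the stretch and in 0.606% of the 32851 RefSeq promoters of the same length, whereas GGGCGG, found in 32.7% of them, was not among its letters. The stretch was 57.6% G and C and held 17 CpG dinucleotides.

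The other members of the family differed in how far they stood from WT. *Ptbp2* (chromosome 3, 119718742 to 119784466) was at 338 CPM in WT and at 428, 455 and 430.3 CPM in Het1 to Het3, so that every Het library was above WT by more than the range among them. The KO libraries were higher again, at 529, 549.8 and 538 CPM. The Het mean of 438 ± 15.1 CPM (SD, n = 3) was 129% of WT, a log2 fold change of 0.37 with a standard error of 0.0541, which did not pass edgeR's test (adjusted p = 0.538). DESeq2's Wald test, the alternative tool, did call it (adjusted p = 3.33e-07), whereas its adjusted p in 13 edgeR alternatives ranged from 0.257 to 1. *Ptbp3* was at 97.1 CPM in WT and between 92.7 and 97.8 CPM in the Het libraries, a range that included the WT value.

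Across the transcriptome, Het and WT were alike in most genes. Among the 15395 genes with a mean of at least 50 scaled counts, the median absolute log2 fold change was 0.06, and over all genes tested the median log2 fold change was 0.01. A gene was called where the adjusted p was below 0.05 and the fold change above 1.2. Of 20019 genes tested with edgeR, 1 was called, the processed pseudogene *Gm9855*, which was higher in Het (0.00500% of the genes tested), and 0 were called lower. At an unadjusted p below 0.05 there were 682 genes, 399 of them higher in Het and 283 lower. DESeq2 called 38 genes, or 0.173% of the 21985 it tested, 25 higher and 13 lower. With a single WT library both tools take the spread of WT from the Het and KO libraries, so a gene that happened to be unusual in the WT pool cannot be told apart from one that moves with genotype.

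Because the WT group had no replicate, genes were also described by a rule without a test: all 3 Het libraries past 1.2-fold of WT on the same side, with at least 50 scaled counts on average over WT and Het. Of the 15395 genes, 528 met it (3.43%), 376 higher (2.44%) and 152 lower (0.987%). With Het2 and Het3 alone, 489 genes were higher (3.18%) and 256 lower (1.66%) at 1.2-fold. At 1.5-fold 119 were higher and 37 lower, and at 2-fold 49 and 13. Of the 38 genes called by DESeq2, 33 met the rule. The mean covers 1 WT and 3 Het libraries, so genes high only in WT reach the count minimum less readily than genes high in Het. *Gm2004*, with 205 counts in WT and almost none in Het, fell under it at 48.9 scaled counts. *Dsg1a*, with 0 counts in WT, passed it. The numbers of higher and lower genes are therefore not weighed against each other.

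**Figure D2:**
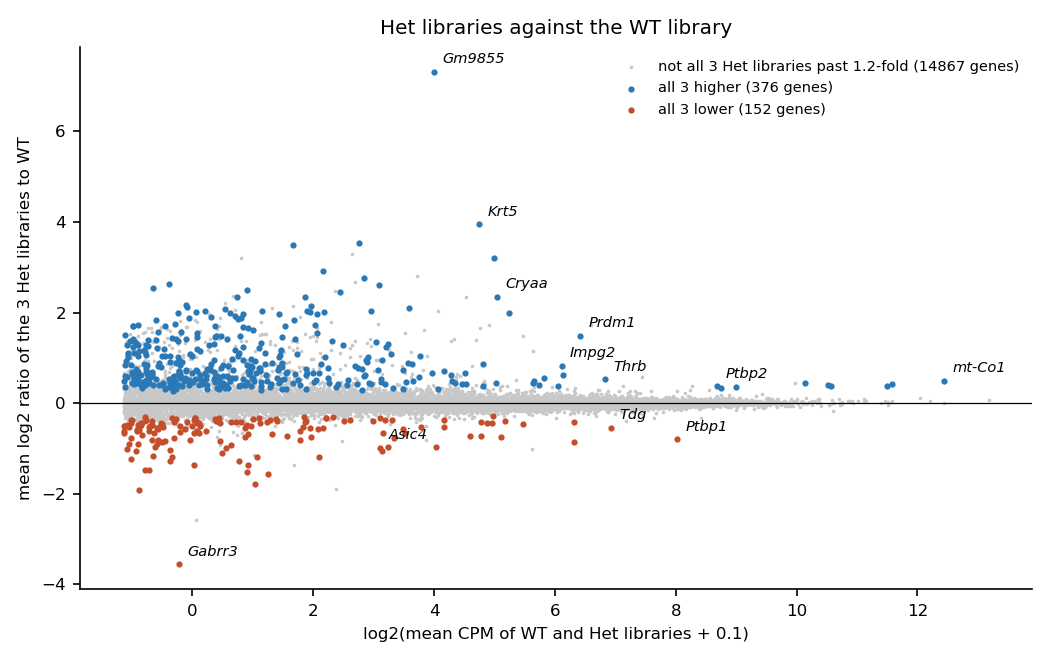
Mean log2 ratio of the 3 Het libraries to WT (vertical axis) against log2(mean CPM + 0.1) of the WT and Het libraries (horizontal axis) for 15395 genes. Blue points are the 376 genes with all 3 Het libraries more than 1.2-fold above WT and red points the 152 genes with all 3 more than 1.2-fold below it, most of them at low levels, with *Gm9855* far above all others.

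*Gm9855* (chromosome 10, 42054113 to 42055306) was nearly absent from WT, with 5 counts or 0.0336 CPM (exact Poisson 95% interval 0.0109 to 0.0785 CPM, counting error only). It was at 20.7, 21.8 and 21.3 CPM in Het1 to Het3 and at 41.6, 40.7 and 39.6 CPM in the KO libraries. Its log2 fold change in Het was 9.27 with a standard error of 0.12 (edgeR, adjusted p = 8.56e-07), and it passed in each of the 11 edgeR alternatives that tested it, with adjusted p between 5.31e-08 and 0.000828. *Gm9855* is a copy without introns of *Tdg*, which encodes the thymine DNA glycosylase that removes mismatched and oxidised bases from DNA. *Tdg* lies on the same chromosome (82629828 to 82650799), 2.78 Mb beyond *Ptbp1*. It was at 159.8 CPM in WT and lower in the mutants, at 109.7, 110.2 and 109.7 CPM in Het and at 63.4, 58.8 and 58.9 CPM in KO.

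The Het libraries of *Tdg* thus had an SD of 0.281 CPM (n = 3) and held 68.8% of the WT level, a log2 fold change of -0.54 with a standard error of 0.0496. It did not pass edgeR's test (adjusted p = 0.123), except without KO1 (adjusted p = 0.0313, range over 13 edgeR alternatives 0.0313 to 0.733). DESeq2 called it with all libraries (adjusted p = 7.77e-12). The *Tdg* and *Gm9855* transcripts shared 1185 of 1194 aligned bases (99.2%), which covered all 1191 coding bases of *Tdg*, so reads from one can match the other and the split of counts between them is uncertain. Added together, they came to 159.8 CPM in WT, to 130.4, 132 and 131 CPM in Het and to 105, 99.5 and 98.6 CPM in KO. *Gm9855* made up 0.021% of the sum in WT, 15.9%, 16.5% and 16.2% in Het, and 39.6%, 40.9% and 40.2% in KO. The pair is shown over coding bases 1012 to 1101 of *Tdg*, the 90-base stretch with the most differences, which are in capitals.

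Tdg: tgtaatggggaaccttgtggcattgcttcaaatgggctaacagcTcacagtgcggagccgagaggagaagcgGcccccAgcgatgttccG

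Gm9855: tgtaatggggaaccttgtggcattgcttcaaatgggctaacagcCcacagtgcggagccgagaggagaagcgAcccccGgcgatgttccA

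The 4 differences here, of 9 in the whole alignment, are letters by which a read within the aligned bases could be assigned to either gene. The *Tdg* transcript has 2959 bases, and reads from its unaligned part do not depend on these letters.

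Other genes of chromosome 10 were looked at because the deleted allele lies there. Of 131 neighbours within 2 Mb of *Ptbp1* with enough counts, 2 met the 1.2-fold rule, *E130317F20Rik* and *Jsrp1*, which encodes a muscle protein and was highest in Het1. Just beyond, beside *Tdg*, *1190007I07Rik* was at 4.96 CPM in WT, at 2.63, 2.88 and 2.83 CPM in Het and at 0.838, 0.882 and 0.848 CPM in KO. On the whole chromosome 19 genes were higher and 6 lower of 724, or 3.45%, near the share among all genes.

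*Prdm1* (chromosome 10, 44437177 to 44528501) encodes BLIMP1, a transcriptional repressor that steers newborn cells towards the photoreceptor and away from the bipolar fate. It was at 35.8 CPM in WT, at 117, 91.6 and 95.7 CPM in Het1 to Het3 and between 162 and 164 CPM in the KO libraries. The lowest Het library was thus 256% of WT, and the Het mean of 101.5 ± 13.8 CPM (SD, n = 3) was 284% of it. The log2 fold change was 1.504 with a standard error of 0.14. It did not pass the test with all libraries (edgeR, adjusted p = 0.123), but did without Het1 (adjusted p = 0.00187) and with no filter on low counts (adjusted p = 0.0476), in a range over 13 edgeR alternatives of 0.00187 to 0.685. DESeq2 called it with all libraries (adjusted p = 2.88e-33).

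Photoreceptor genes had more members past the 1.2-fold rule than any other retinal list. Of the 42 on the list, 38 were tested and 29 had enough counts, and 9 of these were higher and 4 lower in all 3 Het libraries, against 2.44% and 0.987% of all genes. None of the 38 passed edgeR's test. The median log2 fold change of the list was 0.12, beside 0.01 for all genes tested, and the library medians were 0.15 in Het1, 0.11 in Het2 and 0.05 in Het3 against 0.54 to 1.09 in the KO libraries. Those that were higher include genes of cone and early photoreceptor cells. Besides *Prdm1*, the most abundant was *Thrb*, which encodes the thyroid hormone receptor that sets cone identity. It was at 85.4 CPM in WT and at 121, 123 and 126 CPM in the Het libraries (log2 fold change 0.53, standard error 0.102, edgeR adjusted p = 0.871, DESeq2 adjusted p = 5.19e-05), and its KO libraries were at 108 CPM, below all Het libraries, and at 129 and 129.5 CPM, above them.

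*Impg2*, which encodes a proteoglycan of the matrix between photoreceptors, was at 43.5 CPM in WT, at 82.1, 82.4 and 68.4 CPM in Het and back between 38.1 and 51.4 CPM in KO. *Gnat2*, the cone transducin, was at 7.21 CPM in WT and at 16, 10.3 and 10.8 CPM in Het. *Pdc*, which encodes phosducin, followed with 6.95 CPM in WT and 17, 10.6 and 12.2 CPM in Het. In both genes, and in the blue cone opsin *Opn1sw* (2.54 CPM in WT and 9.07, 5.32 and 5.25 CPM in Het), the cone phosphodiesterase *Pde6c*, the rod factor *Nr2e3* and the axonemal gene *Rp1*, Het1 was the highest of the 3 Het libraries, and all KO libraries were above all Het libraries. In *Gnat2* and *Pde6c* Het2 and Het3 were within 1.5-fold of WT. With Het2 and Het3 alone, 9 genes of the list were higher and 5 lower, against 3.18% and 1.66% of all genes.

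Outside the list, *Cdhr1*, a cadherin at the base of photoreceptor discs, was at 49.8 CPM in WT and at 81.5, 77.1 and 71.9 CPM in Het. *Egflam*, which encodes the photoreceptor synapse protein pikachurin, was at 39.3 CPM in WT and at 53.5, 53.5 and 52.5 CPM in Het. Both were named after their values had been seen. Among transcription factors of the lineage, *Otx2*, *Crx* and *Neurod1* did not depart in this way, unlike *Prdm1*, *Thrb* and *Nr2e3*. *Otx2* was at 162 CPM in WT and between 162 and 182.5 CPM in Het, *Crx* at 172.5 CPM in WT and between 149 and 168 CPM, and *Neurod1* at 158 CPM in WT and between 159 and 166 CPM.

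The other 4 photoreceptor genes were lower in Het. *Samd7*, a rod repressor, was at 1.27 CPM in WT and at 0.589, 0.436 and 0.395 CPM in Het, but between 2.49 and 4.2 CPM in KO. *Sag*, the rod arrestin, was at 0.982 CPM in WT, between 0.336 and 0.42 CPM in Het and between 1.33 and 3.03 CPM in KO. *Abca4*, the retinoid transporter of discs, was at 13.9 CPM in WT and at 9.97, 5.40 and 5.52 CPM in Het, and *Pde6g* at 2.25 CPM in WT and 1.69, 0.99 and 0.87 CPM in Het. None of the 4 passed edgeR's test (adjusted p = 0.9998 for each).

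Several genes of bipolar cells were also higher in WT, a list drawn up only after this had been seen. Of 18 tested, 13 had enough counts, of which 5 were lower in all 3 Het libraries and 0 higher, beside 0.987% and 2.44% of all genes. As the list was made from what had been seen, nothing is read from this count. *Gabrr3*, a subunit of the GABA receptors of bipolar and other retinal interneurons, was at 2.63 CPM in WT and at 0.1, 0.201 and 0.105 CPM in Het, with KO also low, between 0.0826 and 0.151 CPM (edgeR adjusted p = 0.147, DESeq2 adjusted p = 7.42e-10). The lincRNA *1700022E09Rik*, which overlaps the end of *Gabrr3* on the other strand (chromosome 16, 59462909 to 59469238), was at 0.693 CPM in WT and at most 0.0593 CPM in Het. *Lhx4*, a homeobox gene of newborn cones and bipolar cells, was at 34.5 CPM in WT, 22.3, 20.4 and 19.6 CPM in Het and 20.3 to 22.5 CPM in KO (log2 fold change -0.73, standard error 0.0914, edgeR adjusted p = 0.287, DESeq2 adjusted p = 4.7e-08). *Cabp5*, *Vsx1* and *Grik1* made up the rest, while *Prkca*, *Irx5* and *Irx6* had Het means of 103%, 104% and 102% of WT. *Trpm1*, also on the list, went the other way, mostly in Het1. It was at 21.2 CPM in WT and at 117, 23.6 and 37.8 CPM in Het1 to Het3. The median log2 fold change of the 18 genes was -0.01. *Grm6* and *Gngt1*, which mark more mature bipolar cells and rods, were under the count minimum and also highest in WT among the WT and Het libraries, at 0.195 and 0.652 CPM.

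The lists of other retinal populations had medians near WT. Those tested were early progenitors (16 genes), late progenitors and glia (22), the Notch pathway (20), ganglion cells (22), amacrine and horizontal cells (22) and replication and mitosis (33). Their median log2 fold changes lay between -0.03 and 0.05. No member with enough counts had all 3 Het libraries past 1.2-fold on the same side, beside 2.44% of all genes higher and 0.987% lower. At these shares lists of such sizes hold few genes or none, so nothing is read from this count. Among early progenitor genes, *Fgf15* was at 774 CPM in WT and at 699.97, 775 and 780.2 CPM in Het, and *Ccnd1*, the cyclin of retinal progenitors, at 2989 CPM in WT and between 2872 and 2912 CPM. *Sfrp2*, a secreted Wnt antagonist of early progenitors, was at 227 CPM in WT, 165 CPM in Het1, 211 and 216 CPM in Het2 and Het3, and between 75.2 and 112 CPM in KO. The early progenitor list had medians of -0.09, 0.00 and 0.01 in the Het libraries and of -0.30 to -0.43 in the KO libraries. *Dkk3*, *Glul* and *Vim*, the most abundant late progenitor and glial genes, had Het means of 101%, 103% and 104% of WT. *Gap43*, *Stmn2* and *Nefm* led the ganglion cell list, and *Nefl*, the light neurofilament chain, was the member furthest from WT there, at 258 CPM in WT and at 286, 337 and 328 CPM in Het.

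**Figure D3:**
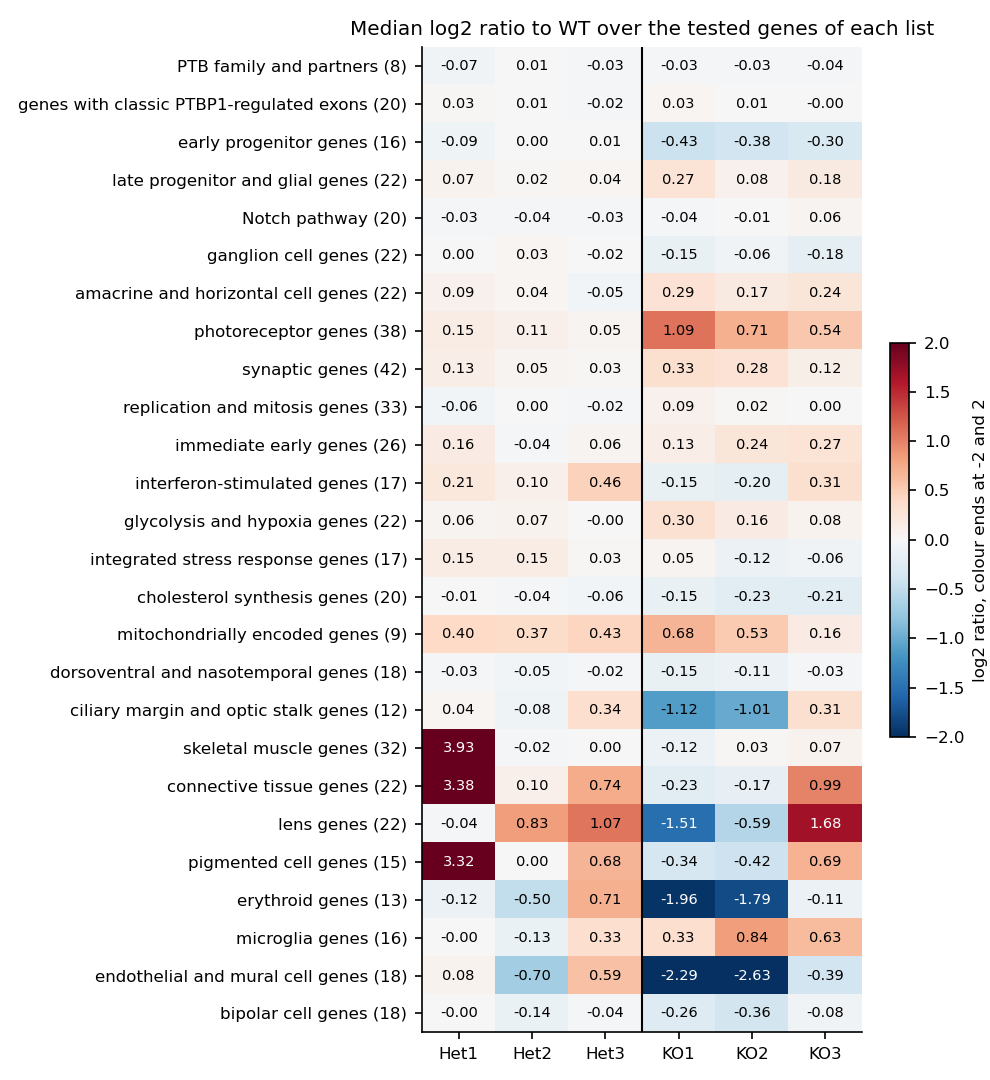
Median log2 ratio to WT over the tested genes of each list (number in brackets) for the 3 Het libraries (left of the line) and the 3 KO libraries (right), with the value written in each cell and colour from -2 (blue) to 2 (red). The Het columns are near 0 for the retinal lists. Muscle, connective tissue and pigmented cell genes stand out in Het1, lens genes in Het2 and Het3, and mitochondrially encoded genes in all 3. Connective tissue and pigmented cell genes are also above 0 in Het3 (0.74 and 0.68). The erythroid list and the endothelial and mural list are above 0 in Het3 (0.71 and 0.59) and below 0 in Het2 (-0.50 and -0.70).

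Genes known for exons that PTBP1 controls were mostly unmoved in their total level. Of 20 tested, 1 was higher and 1 lower past 1.2-fold in every Het library, with a median of -0.01. The higher was *Ptbp2*. *Flna*, which encodes the actin crosslinker filamin A, was at 404 CPM in WT, at 309, 307 and 349 CPM in Het and between 88.6 and 134 CPM in KO, and missed the rule because of Het3. *Pkm*, *Rtn4* and *Src* had Het means of 104%, 99.8% and 98.7% of WT.

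Host transcripts of miR-124, a neuronal microRNA, were lower in Het. *Mir124-2hg* was among the 5 abundant genes furthest below WT, at 97.8 CPM in WT and at 69.5, 78.1 and 71.3 CPM in Het, with the KO libraries between 61.3 and 88.7 CPM. *Mir124a-1hg*, named after its value had been seen, was at 15.6 CPM in WT and at 10.8, 9.36 and 9.52 CPM in Het but between 14.1 and 20.97 CPM in KO. Neither passed edgeR's test (adjusted p = 0.9998 for both).

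Further protein-coding genes below WT in all 3 Het libraries were chosen after their values had been seen or by their fold, and none passed edgeR's test. *Asic4*, an acid-sensing channel subunit, was at 13.6 CPM in WT, 6.95, 7.30 and 6.31 CPM in Het and 6.86 to 8.72 CPM in KO. *Egfem1* was at 25.8 CPM in WT, at 11.5, 13.6 and 14.6 CPM in Het and between 2.61 and 4.68 CPM in KO. *Invs*, which encodes inversin of the primary cilium, was at 14.8 CPM in WT, 9.59, 9.95 and 10.2 CPM in Het and 5.43 to 6.36 CPM in KO. Of these, *Egfem1* and *Invs* stood further from WT in KO than in Het, whereas *Asic4* was at one level in both. *Atp13a5*, *Fam19a3*, *Uncx* and *Mctp2*, other protein-coding genes among the furthest below WT in fold, were all under 5 CPM in WT and had Het means of 20.04%, 27.9%, 35.7% and 39.5% of it. *Insm1*, a zinc finger factor of newborn neurons, was at 202 CPM in WT and at 162, 168 and 172.5 CPM in Het. It was called by DESeq2 and by none of the edgeR fits, in the same way as *Slitrk6*, at 33.6 CPM in WT and 24.0 to 26.5 CPM in Het.

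Among genes that were higher, *Angpt1*, which encodes the ligand angiopoietin, was at 3.64 CPM in WT, 11.9, 7.72 and 9.25 CPM in Het and 11.9 to 12.2 CPM in KO. *Doc2b*, a calcium sensor of neurotransmitter release, was at 17.2 CPM in WT, 36.7, 29.8 and 28.6 CPM in Het and 39.8 to 45.6 CPM in KO. *Kcnab1*, a potassium channel subunit, was at 7.57 CPM in WT, at 15.3, 12.7 and 14.0 CPM in Het and between 11.9 and 13.8 CPM in KO. *Chrnb4*, a subunit of nicotinic acetylcholine receptors, was at 42.9 CPM in WT and at 57.6, 57.6 and 55.9 CPM in Het, with an SD of only 0.981 CPM among them (log2 fold change 0.41, standard error 0.0438, edgeR adjusted p = 0.179). Its KO libraries were lower than all Het libraries, at 45.5 to 47.9 CPM. DESeq2 called all 4 of these genes.

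The largest fold changes of protein-coding genes came from Het1. By fold change, the 8 highest among genes with every Het library past 1.2-fold were *Krt5*, *Dsg1a*, *Agtr2*, *Tbx15*, *Myh8*, *Kera*, *Lum* and *Wnt6*, genes of epidermis, mesenchyme, muscle and corneal stroma. *Krt5*, a keratin of basal epidermis, was at 0.0202 CPM in WT, 106 CPM in Het1, 0.101 and 0.198 CPM in Het2 and Het3, and 24.4 CPM in KO3. In all 8, Het2 and Het3 were under 1 CPM. The pseudogene *Gm29216* had the same pattern, at 0.0471 CPM in WT, 17.01 CPM in Het1 and at most 0.198 CPM in Het2 and Het3. It matched *mt-Co1* with 99.8% identity and is not a marker of these tissues. Of the 376 genes higher in every Het library, 56 were more than 2-fold higher in Het1 than in both others.

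Genes more than 2-fold from WT in Het1 and within 1.5-fold of it in Het2 and Het3 numbered 315 (2.05% of 15395), 306 of them higher. Since Het2 and Het3 may pass 1.2-fold here, some genes, such as *Dsg1a*, also met the 1.2-fold rule. They included 26 of the 27 muscle genes with enough counts and 4 of 15 pigmented cell genes. The 5 highest in Het1 were *Igf2*, *Krt15*, *Myh3*, *Col8a1* and *Acta1*, of which the embryonic myosin *Myh3* was at 0.888 CPM in WT, 88.8 CPM in Het1 and 1.07 and 1.13 CPM in Het2 and Het3. The muscle list summed to 20.9 CPM in WT, 464 CPM in Het1, 19.4 and 19.98 CPM in Het2 and Het3 and 24.3 to 26.8 CPM in KO, and all 32 tested members were highest in Het1 of the 7 libraries. Pigmented cell genes summed to 71.4 CPM in WT, 649 CPM in Het1, 69.0 CPM in Het2 and 107 CPM in Het3, the melanosome gene *Pmel* alone reaching 321 CPM in Het1 from 16.8 CPM in WT.

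Connective tissue genes were highest in Het1 among the WT and Het libraries, with Het3 next. Their list also held the epidermal keratin *Krt5*, at 106 CPM in Het1. With it, the list summed to 273 CPM in WT, 899.9 CPM in Het1, 262 CPM in Het2 and 338 CPM in Het3. The median log2 fold change was 2.65 with all Het libraries and 0.57 without Het1. *Col3a1*, a collagen of loose connective tissue, was at 1.22 CPM in WT and 117, 2.22 and 6.54 CPM in Het. The median of the muscle list was 4.22 with Het1 and -0.03 without it.

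**Figure D4:**
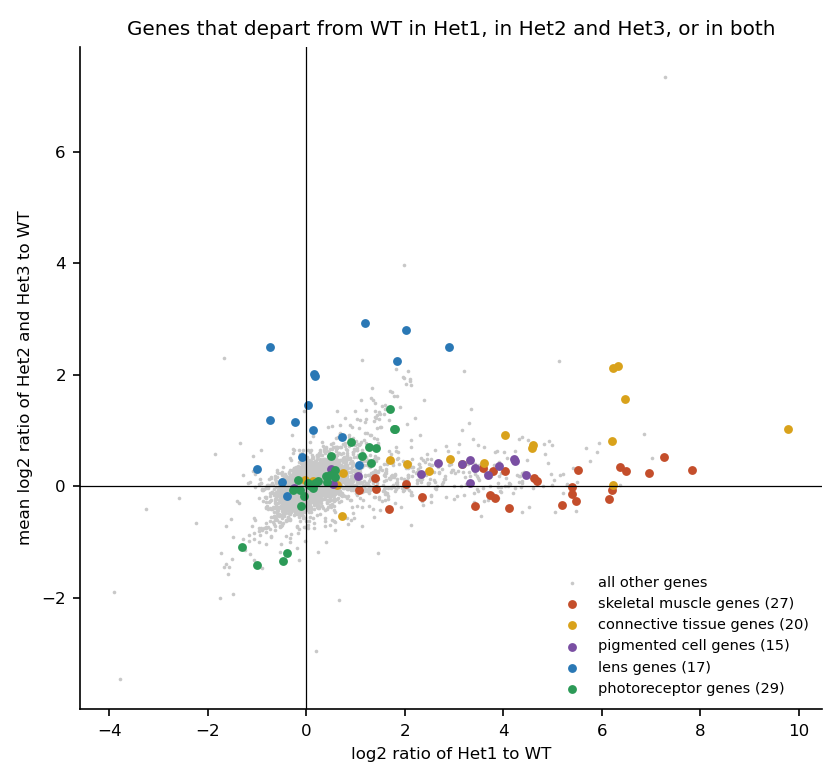
Log2 ratio of Het1 to WT (horizontal axis) against the mean log2 ratio of Het2 and Het3 to WT (vertical axis) for 15395 genes, with 5 lists coloured. Muscle genes lie far to the right at a height near 0, pigmented cell genes to the right and partly above 0 (median 0.68 in Het3), lens genes lie mostly above 0 at the left and centre, and photoreceptor genes lie in a narrow band through the origin.

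Lens genes showed another pattern. Of 22 tested, 17 had enough counts, 6 were higher in all 3 Het libraries (2.44% of all genes) and 15 were higher in both Het2 and Het3 (3.18% of all genes). The list summed to 33.6 CPM in WT, 53.9 CPM in Het1, 116 CPM in Het2 and 167 CPM in Het3. In the KO libraries the sum ranged from 11.0 CPM in KO1 to 99.4 CPM in KO3. *Cryaa*, the alpha crystallin of lens fibres, was at 6.97 CPM in WT and at 16.2, 45.1 and 63.5 CPM in Het, and *Mip*, the lens aquaporin, at 0.0538 CPM in WT and 1.04, 0.621 and 0.949 CPM in Het. None passed edgeR's test, and *Gja3*, a gap junction gene of the lens, was called by DESeq2 alone. The erythroid list summed to 341 CPM in WT, 290.2 CPM in Het1, 190.03 CPM in Het2 and 533 CPM in Het3, on both sides of WT, and to 25.5 to 299 CPM in KO. With enough counts there were 10 of the 13 erythroid genes tested, 16 microglial genes and 18 endothelial and mural genes. None of these met the 1.2-fold rule, beside 2.44% of all genes higher and 0.987% lower. The Het libraries still differed, with endothelial and mural medians of 0.08 in Het1, -0.70 in Het2 and 0.59 in Het3. The part of these tissues in the genes named above was not tested.

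Most mitochondrially encoded genes with enough counts were higher in all Het libraries. Of the 9 tested on the list, 8 had enough counts. Of these, 7 were above WT by more than 1.2-fold in every Het library, beside 2.44% of all genes. Among all 18 mitochondrially encoded genes with enough counts, on the list or not, 10 (55.6%) were higher by this rule and 0 lower. *mt-Co1*, a subunit of cytochrome c oxidase, was at 4245 CPM in WT, at 5829, 5690.3 and 6457 CPM in Het, at 7516 and 6882 CPM in KO1 and KO2, and at 5274 CPM in KO3. In *mt-Nd4*, *mt-Cytb* and *mt-Nd2*, too, KO3 lay between WT and the Het libraries, with KO1 and KO2 above all Het libraries. The list summed to 12690 CPM in WT, 16518 to 18018 CPM in Het, 20330 and 18957 CPM in KO1 and KO2 and 14609 CPM in KO3. None of these genes passed edgeR's test, with an adjusted p of 0.9998 for each of those named.

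Pseudogenes made up 97 of the 376 higher and 28 of the 152 lower genes, which is 21.3% and 6.15% of the 455 pseudogenes with enough counts, against 1.72% and 0.607% of the 13834 protein-coding genes. The medians of the 97 higher pseudogenes were 1.04, 0.91 and 1.02 on the log2 scale in Het1 to Het3 and 0.99 and 0.88 in KO1 and KO2, but 0.10 in KO3. KO3 was thus near WT and apart from the other 2 KO libraries. Most of them, 86 of 97, matched a protein-coding transcript at 95% identity or more over at least 90% of their length, and 40 matched a ribosomal protein gene, against 330 and 116 of all 455. *Gm10240*, a copy of *Rpl21* with 99.6% identity, was at 0.464 CPM in WT, 2.11, 1.95 and 2.26 CPM in Het, 2.23 and 1.88 CPM in KO1 and KO2 and 0.42 CPM in KO3.

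**Figure D5:**
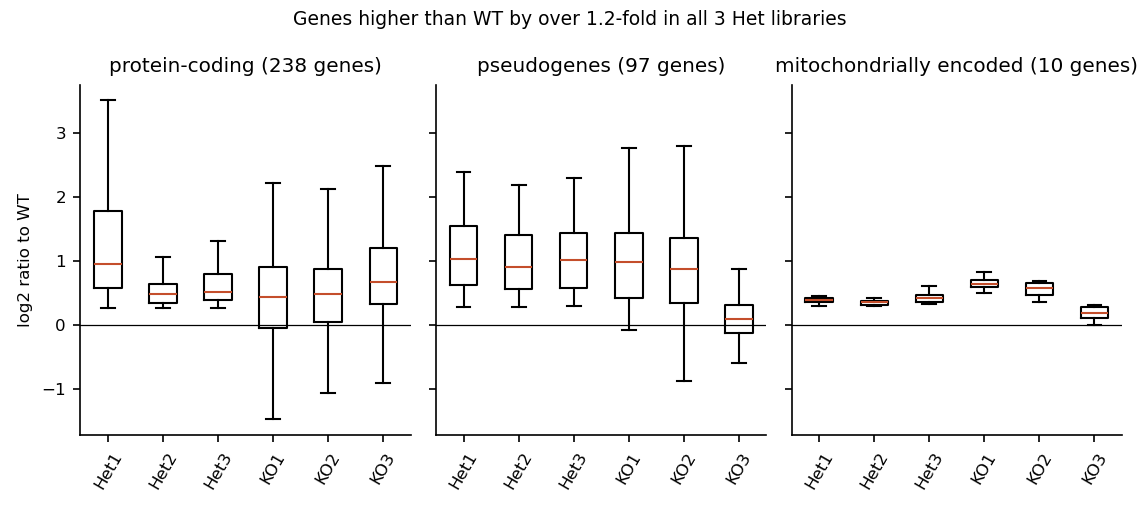
Log2 ratio to WT in each Het and KO library of the genes higher by over 1.2-fold in all 3 Het libraries, split into 238 protein-coding genes, 97 pseudogenes and 10 mitochondrially encoded genes (boxes, quartiles with the median in red; whiskers, up to 1.5 times the box height; outliers not drawn). The pseudogenes of KO3 lie near 0, at the WT level, while those of the other libraries lie near 1.

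Among lower pseudogenes, *Gm14760*, a copy of *Gapdh* with 99.9% identity, was at 4.66 CPM in WT, 1.37 to 1.66 CPM in Het, 1.61 and 1.66 CPM in KO1 and KO2 and 3.90 CPM in KO3. *Gm14494* and *Rpl31-ps11*, also among the genes furthest below WT in fold, likewise had KO3 as the nearest library to WT. *Rps2-ps13*, the abundant pseudogene furthest below WT, was at 118 CPM in WT and at 83.0, 46.2 and 71.2 CPM in Het but between 181 and 281 CPM in KO. *Gm17669*, a copy of *Rpl29*, was at 3.5 CPM in WT, 0.982 to 1.53 CPM in Het and at most 0.0152 CPM in KO, and *Gm37285*, not yet classified in the annotation, at 0.767 CPM in WT, 0.235 to 0.318 CPM in Het and 0.608 to 0.788 CPM in KO. How reads that match several places were counted was not given in the sources used here, so these levels are uncertain.

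Of the remaining lists, synaptic genes had 1 member of 42 lower, *Slc17a7*, and interferon-stimulated genes 2 of the 10 with enough counts higher, *Ddx58* and *Ifi27*, both under 3 CPM, beside 0.987% of all genes lower and 2.44% higher. Immediate early, glycolysis and hypoxia, integrated stress response, cholesterol synthesis, dorsoventral and nasotemporal, and ciliary margin and optic stalk genes had none, with medians between -0.04 and 0.15. *Xist*, which is expressed in female cells, was at 67.5 CPM in WT and at 11.2, 68.8 and 49.2 CPM in Het1 to Het3. No sex-linked gene of the list was past 1.2-fold in all 3.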

How the data were processed

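Bulk RNA-seq of E16 retina was analysed in 7 libraries, 1 WT, 3 Het and 3 KO, grouped by the genotype in the labels. Per the labels and the study's methods, libraries were made with a stranded mRNA kit, and the authors aligned reads to GRCm38 (mm10) with STAR and deposited raw whole-number counts per gene from featureCounts. Versions, the strand setting and the treatment of multi-mapping reads were not given in the sources used here. All 7 value columns were used, leaving 0 of no sample. Gene types and positions came from GENCODE's GRCm38 annotation, a later release than the authors', and 19931 of the 20019 genes tested matched it by identifier.

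Genes were filtered with filterByExpr, scaled by TMM (factors 0.988 to 1.03) and fitted with a mean per genotype over all 7 libraries by edgeR's quasi-likelihood test (edgeR 4.0.16, R 4.3.3). The Het minus WT contrast was adjusted by Benjamini-Hochberg, and a call needed an adjusted p below 0.05 and a fold change above 1.2. Standard errors were derived from this test, as the absolute log2 fold change divided by the square root of its F statistic. The lone WT library is thereby assumed to vary like the others. DESeq2 1.42.0 was an alternative. Ratios of single libraries to WT used log2(CPM + 0.1), which understates changes of low genes, and genes with a mean of at least 50 scaled counts. Het library pairs differed by far more than counting noise (chi-square over degrees of freedom 13.0 to 40.8), so none was counted as a copy. The scripts for calls were tested on simulated counts in which the WT library varied like the others. An unusual WT pool was not simulated.

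The members and lists were chosen with earlier results of these data known. The genes named were the *Ptbp* family, the 8 largest rises and falls by fold change among genes with every Het library past 1.2-fold (all types, and protein-coding alone, called genes first and then genes not called, since 1 gene was called), the 5 of each above 50 CPM in WT, the 5 highest of those departing in Het1 alone, and called members of each list with its 3 most abundant. Genes past these were chosen after their values were seen, mainly those that DESeq2 called or with the largest smallest ratio among the 3 Het libraries. Pseudogenes were matched to protein-coding transcripts with BLAST 2.17.0 and *Tdg* was aligned to *Gm9855* with Biopython 1.88. Some named genes are not reported here.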

Additional observations from a re-analysis of the deposited data

How the results depend on the processing

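The 1 gene called by edgeR stayed 1 under RLE and upper-quartile normalization, adjusted p alone, glmTreat, and the WT and Het libraries alone. DESeq2 called 38. It was 2 with no filter, and 0 with at least 10 counts in every library and with protein-coding genes alone, as both leave *Gm9855* out of the test. Leaving out a library gave 1 to 2, *Prdm1* being added without Het1 and *Tdg* without KO1. *Ptbp1* and *Ptbp2* kept their direction under all alternatives, and *Ptbp2* passed with DESeq2 (log2 fold change 0.37, adjusted p = 3.33e-07). Of 1440 values of other named genes under these alternatives, 2 turned direction, *Krt15* at -0.13 and *Acta1* at -0.064 without Het1, in ranges of -0.13 to 4.30 and -0.064 to 5.39 when each library was left out. The 528 genes with every Het library past the fold became 244 with a pseudocount of 1 CPM, 1202 with no count minimum, 251 with at least 200 scaled counts, 156 at 1.5-fold and 62 at 2-fold, and 745 to 991 when each Het library was left out, fewer libraries then having to pass. They numbered 525 with RLE and 530 with library totals. The 315 genes departing in Het1 alone became 606 with no count minimum and 161 with at least 200 scaled counts. The share of *Ptbp1* neighbours past 1.2-fold, 1.53% within 2 Mb, was 2.90% within 10 Mb, a window added after the data had been seen. The cause of the difference between edgeR and DESeq2 was not tested. No paired analysis was possible because the single WT library carries no replicate number. One limit is that single WT library: what is unusual in its pool counts as a difference in every ratio, whatever the depth, and the counts of low genes are uncertain besides.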
